A study of Drosophila melanogaster with 19 samples.

Results

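Ank2, toc and Spn are Drosophila melanogaster genes for proteins of the cell skeleton, and every back-splice junction whose host gene is one of these 3 was examined. They accounted for 22 of the 5323 junctions listed over all libraries, 7 from Ank2 (FBgn0261788), 6 from toc (FBgn0015600) and 9 from Spn (FBgn0010905). Of the 4515 junctions listed in fly heads, 20 were from these genes and held 1275 of 113551 back-splice reads (1.12%). The 3 genes were picked from earlier results of the same data: toc and Spn for their levels in the slow polymerase against wild-type comparison after RNase R, and Ank2 for its levels by title number after RNase R. Those 2 comparisons are therefore given below as a description with no test for the members. A gene gets no standard error (SE) in the comparison it was picked from.

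A back-splice junction joins the end of an exon to the start of the same exon or of one further upstream. It is the mark by which a circular RNA is recognised in sequencing reads. Circular RNAs have no free ends, so most of them withstand RNase R, an exonuclease that degrades linear RNA from its 3′ end. They are known to be abundant in neural tissue of flies and mammals. Ank2 encodes a neuronal ankyrin, which ties the spectrin skeleton beneath the membrane to membrane proteins and helps to stabilise synapses. toc (toucan) encodes a protein associated with microtubules, known best from the ovary. Spn encodes Spinophilin, a scaffold that binds actin filaments and protein phosphatase 1 and acts at presynaptic active zones.

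The flies were either wild-type Canton-S (WT) or carriers of C4 (slow), a mutation of the large subunit of RNA polymerase II with which the enzyme elongates slowly. Each genotype carried the numbers 18 and 29 in its sample titles, with 2 RNA samples per combination. The sources used here say neither what these title numbers mean nor how old the flies were. Each of the 8 RNA samples gave a mock-treated and an RNase R-treated library, which makes 16 head libraries. S2 cells, a cultured line of embryonic origin, gave 1 mock and 1 RNase R library, and 1 stranded library was made from WT heads. Whole heads mix neurons, glia, photoreceptors, muscle and fat body, and fewer cells of a type cannot be told apart from less RNA per cell. The labels do not say whether replicates are separate groups of flies, so the p-values cover only the variation among these samples, and that may be technical.

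Listed back-splice reads numbered 800 to 3427 in mock head libraries, 4871 to 20254 in RNase R head libraries, 4421 and 14874 in S2 cells, and 2599 in the stranded library. Levels are reads per 10000 listed back-splice reads of the library, so they are relative to the other junctions. Tables list a junction from 2 reads on, and a junction with no listed read in a library was taken as 0. Of 9 neuron marker genes, 7 had back-splice reads in mock heads, with a summed level of 66.6 to 114 per library. The defining marker elav had none. All 9 were at 0 in S2 cells. Reads carried no molecular identifiers, so intervals cover counting error only.

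Ank2 lies on the minus strand of chromosome 3L (dm3 coordinates throughout), and 3 of its junctions held 850 of its 867 head reads (98.04%). All of them use 1 coding exon of 420 bases, matched by its length in the dm6 gene annotation. The leading junction, 3L:7655571-7656424, spans 854 bases and equals the stretch of a 66-base exon, an intron and the 420-base exon. With 471 head reads it ranked 22nd of 4515 junctions. The junction 3L:7655571-7655990, with 273 reads, closes the 420-base exon on itself. The junction 3L:7655081-7655990, with 106 reads, spans 910 bases and joins the 420-base exon to the next one of 273 bases. Of the 22 annotated Ank2 transcripts, 10 hold the first pair of exons, 10 the single exon and 2 the last pair.

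The fourth Ank2 junction with at least 10 head reads, 3L:7649475-7654606, has the length of a single exon of 5132 bases, of which 4985 are coding. It had 13 reads. Of the other Ank2 junctions, 3L:7651221-7651448 and 3L:7658069-7658269 had 2 head reads each and matched no exon stretch by length. The last, 3L:7689744-7693648, matched a stretch of 5 exons and was listed with 2 reads in the stranded library alone.

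toc, on the minus strand of chromosome 2L, was led by 2L:3094217-3098065, with 186 of its 229 head reads (81.2%). Its ends are 3849 bases apart, the length of a stretch of 2 coding exons of 144 and 159 bases with the intron between them. The second toc junction, 2L:3080651-3081268, spans 618 bases over exons of 275 and 237 bases and had 29 reads. The other 4 toc junctions had 2 to 6 reads. One of them, 2L:3069082-3069243, is listed on the plus strand, opposite to toc, and matched no exon stretch.

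Spn, on the minus strand of chromosome 3L, spread its 179 head reads over 8 junctions. A single exon of 1508 bases, 1501 of them coding, gave 3L:2534711-2536218 with 51 reads. The noncoding second exon, of 427 bases, gave 3L:2540977-2541403 with 49 reads. A junction over both of these neighbouring exons, 3L:2534711-2541403 with ends 6693 bases apart, had 34 reads. These 3 held 134 of the 179 reads (74.9%), and the fourth, 3L:2509364-2510557, spanned 1194 bases near the other end of the gene and had 24. The remaining 4 head junctions had 3 to 6 reads, and 3L:2511163-2511931 was listed in S2 cells alone. Over the 3 genes, 19 of the 22 junctions matched a stretch of annotated exons by length, and 7 of these were single exons.

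**Figure D1:**
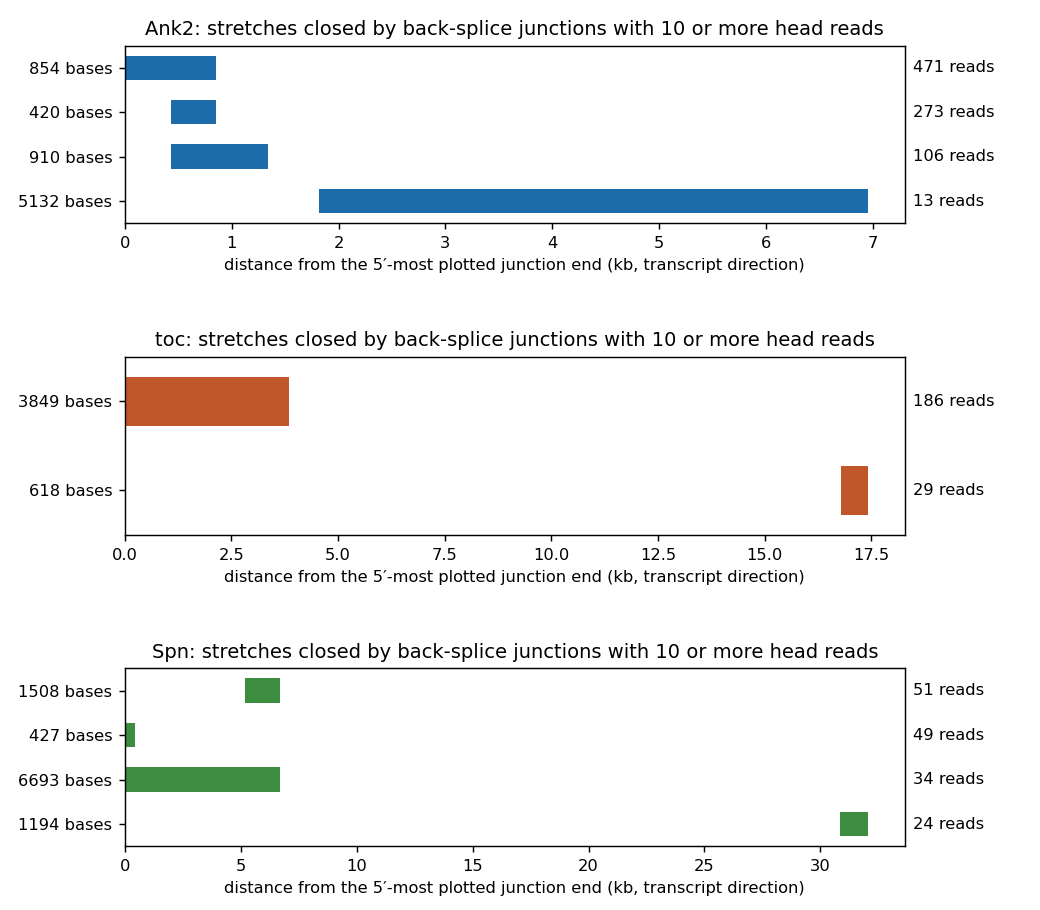
The stretch between the 2 ends of each Ank2, toc and Spn junction with 10 or more head reads, as bars on the distance from the 5′-most plotted end in kb, with head reads at the right. The 3 leading Ank2 bars (471, 273 and 106 reads) share one exon, and the 6693-base Spn bar (34 reads) runs over both single-exon bars of 427 and 1508 bases.

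The response to RNase R compared the 2 libraries of each RNA sample. This measure was not itself used to pick the genes, but its RNase R libraries were. Over all head junctions, edgeR's quasi-likelihood test called 100 of 1354 tested junctions at an adjusted p below 0.05 (7.39%), 26 higher (1.92%) and 74 lower (5.47%) after RNase R. Of the 10 Ank2, toc and Spn junctions that passed the filter of 10 reads, 1 was called and it was lower. The median log2 fold change over all tested junctions was 0.41. With scaling factors from all tested junctions the split was 252 higher and 53 lower and the median 1.12, so directions near 0 depend on the scaling.

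The called junction was the one that closes the 5132-base Ank2 exon. Its level in the mock libraries of title number 29 was 2.92 and 11.1 in WT and 28.3 and 8.86 in slow heads, which rest on 1 to 3 reads each. After RNase R it was 1.48 and 0 in WT and 0.90 and 0 in slow heads of title number 29. It had no reads in any library of title number 18. Mock libraries there held 800 to 1577 listed reads, against 1059 to 3427 at 29. The junction had too few reads to be tested by title number. The level was thus lower after RNase R in 4 of the 4 RNA samples in which it was seen, with a log2 fold change of -3.67 ± 0.82 (SE; edgeR adjusted p = 0.00029). DESeq2, which called 5.32% of all junctions, gave -3.92 with an adjusted p of 0.13. Without replicate 1 of slow29, or of WT29, too few reads were left for the junction to be tested.

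The difference of the 854-base Ank2 junction between treatments was smaller than its error. In mock libraries it stood at 19.0 and 34.2 in WT18, 35.0 and 96.2 in WT29, 37.5 and 33.9 in slow18, and 9.44 and 48.7 in slow29. After RNase R it stood at 27.9 and 25.7 in WT18, 31.6 and 74.1 in WT29, 26.1 and 22.6 in slow18, and 50.4 and 57.0 in slow29. The ranges overlap, with 3 RNA samples higher and 5 lower. Its log2 fold change was -0.11 ± 0.25 (edgeR adjusted p = 0.86), and 0.72 with an adjusted p of 0.032 under scaling over all junctions.

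The single-exon 420-base Ank2 junction was higher after RNase R in 8 of 8 RNA samples, but did not pass the test. Its mock levels were 6.34 and 0 in WT18, 32.1 and 25.9 in WT29, 0 and 11.3 in slow18, and 37.8 and 8.86 in slow29. Its RNase R levels were 6.55 and 2.39 in WT18, 37.0 and 35.9 in WT29, 4.90 and 12.3 in slow18, and 44.1 and 35.3 in slow29. The log2 fold change of 0.39 ± 0.33 (edgeR adjusted p = 0.51) was close to the median of all junctions. Scaling over all junctions gave 1.20 (adjusted p = 0.0050), against a median of 1.12 there.

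The 910-base Ank2 junction had mock levels of 6.34 and 0 in WT18, 5.84 and 11.1 in WT29, 12.5 and 11.3 in slow18, and 18.9 and 13.3 in slow29. After RNase R it had 5.74 and 8.97 in WT18, 10.4 and 10.4 in WT29, 0 and 18.5 in slow18, and 11.7 and 9.30 in slow29. These ranges overlap, and the log2 fold change was -0.10 ± 0.47 (edgeR adjusted p = 0.95). It was 0.71 with scaling over all junctions.

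The leading toc junction was higher after RNase R in 7 of 8 RNA samples. Mock levels were 6.34 and 11.4 in WT18, 11.7 and 11.1 in WT29, 12.5 and 0 in slow18, and 9.44 and 4.43 in slow29, on 0 to 4 reads each. RNase R levels were 19.7 and 18.5 in WT18, 27.6 and 22.3 in WT29, 6.53 and 8.21 in slow18, and 12.6 and 8.06 in slow29. All 4 WT libraries were above every mock library, while the slow libraries lay within the mock range or just above it. This split by genotype repeats the levels for which toc was picked. Over both genotypes the log2 fold change was 0.92 ± 0.43 (edgeR adjusted p = 0.21), and 1.69 with an adjusted p of 0.0011 under scaling over all junctions.

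The 1508-base Spn junction had mock reads in 2 of 8 libraries, at 5.84 in replicate 1 of WT29 and 13.3 in replicate 2 of slow29. Its RNase R levels were 1.64 and 4.19 in WT18, 4.94 and 6.38 in WT29, 9.80 and 0 in slow18, and 7.20 and 3.10 in slow29. The treatments overlap (log2 fold change 0.26 ± 0.67, edgeR adjusted p = 0.89). The other Spn and toc junctions tested had log2 fold changes of 0.12 ± 0.69 (Spn, 427 bases), 0.37 ± 0.81 (Spn, 6693 bases), 0.72 ± 0.91 (toc, 618 bases) and 1.44 ± 1.11 (Spn, 1194 bases), none called. Counts were also simulated at these depths, with the same preset scatter for every junction and no differences among RNA samples. The scatter was not estimated from the data. Under that setting the test called 7.95% of junctions changed 2-fold and 39.8% of those changed 4-fold. These shares run over junctions of all depths and are not the power for a single member.

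**Figure D2:**
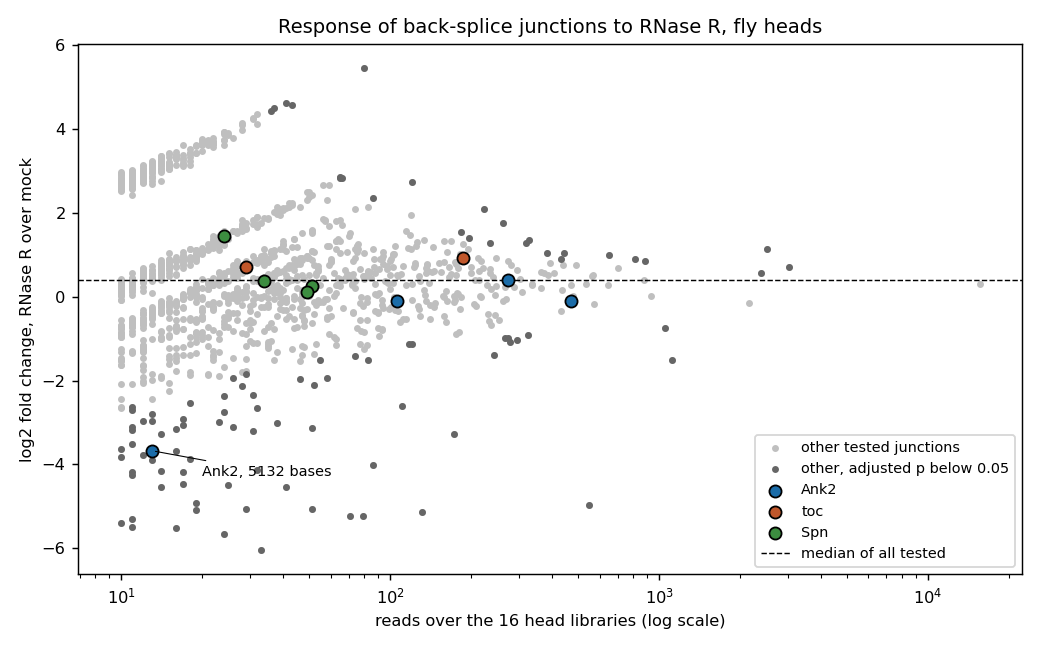
Each point is 1 of 1354 tested head junctions, with its reads over the 16 head libraries (log scale) against its log2 fold change of RNase R over mock. The 5132-base Ank2 junction (13 reads, -3.67) lies among the junctions lowered by RNase R, and the other 9 coloured points lie between -0.11 and 1.44, around the dashed median of 0.41.

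The comparison by title number asked how heads labelled 29 differed from heads labelled 18, with genotype as a factor. In mock libraries, 11 of 230 tested junctions were called (4.78%), 5 higher and 6 lower in title number 29, and none of the 4 members tested was among them. DESeq2 called 1 of the 230 (0.435%). The 420-base Ank2 junction came closest of the 4, at 0 to 11.3 in the 4 libraries of title number 18 and 8.86 to 37.8 in those of 29. The ranges overlap by 1 library on each side. Its log2 fold change was 2.28 ± 0.82 (edgeR adjusted p = 0.077, range 0.051 to 0.58 over the alternatives). The 854-base junction gave 0.88 ± 0.49 (edgeR adjusted p = 0.30), the 910-base junction 0.62 ± 0.92 (0.75) and the leading toc junction 0.41 ± 0.96 (0.81).

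Summed over all its junctions, Ank2 stood at 31.7, 34.2, 50 and 67.8 in the mock libraries of title number 18 and at 75.9, 147.9, 94.4 and 79.8 in those of 29. These sums do not overlap. Host genes were compared over junctions listed in both replicate tables, and 9 of 245 did not overlap in the same direction (3.67%). Over those junctions the highest Ank2 sum at 18 was 56.5 and the lowest at 29 was 75.9. The Ank2 sums come from the RNA samples in whose RNase R libraries Ank2 had been picked for its title-number levels. The sums rest on 3 to 6 reads per library at 18 and 10 to 40 at 29. The summed neuron markers were at 69.8 to 114 in mock libraries of title number 18 and 66.6 to 96.3 in those of 29, and their part in the difference was not tested.

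After RNase R, the comparison from which Ank2 was picked, the 420-base junction averaged 6.54 ± 4.21 at title number 18 and 38.1 ± 4.07 at 29 (SD, n = 4 each). That is a log2 fold change of 2.67, with no overlap between the 2 title numbers, as for 88 of 1221 junctions in this direction (7.21%). As Ank2 was picked for these levels, the separation adds no independent evidence. The 854-base junction averaged 25.6 ± 2.20 and 53.3 ± 17.6, a log2 fold change of 0.94, or 0.61 without replicate 2 of WT29. The 910-base junction, which shares the exon, averaged 8.30 ± 7.73 and 10.4 ± 0.98, a log2 fold change of 0.33. Past the threshold were 179 of all 1221 junctions (14.7%) and 2 of the 9 members, both of Ank2, and nothing is read from this count. The split was 69 higher (5.65%) and 110 lower (9.01%), and 94 higher and 74 lower with scaling over all junctions.

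The same reads can be given as the share of the single-exon junction among the 3 Ank2 junctions of each library, which adds no independent evidence. After RNase R it made up 16.3% and 6.45% in WT18 and 15.8% and 23.1% in slow18. In title number 29 it made up 46.9% and 29.8% in WT29 and 41.5% and 34.8% in slow29. The means were 15.4% ± 6.83 and 38.2% ± 7.50 (SD, n = 4 each), and the lowest library of 29 was above the highest of 18. In mock libraries the summed reads gave 2 of 17 at 18 and 24 of 84 at 29 (11.8% and 28.6%), and single libraries overlapped. After RNase R the neuron markers summed to 59.2 to 79.5 at 18 and 70.9 to 82.5 at 29 and overlapped. The muscle markers did not overlap, at 52.7 to 102.9 at 18 and 26.1 to 45.4 at 29, with 5 of 6 genes seen and Mlc2 at 0 in both. The muscle list does not mark muscle alone, as it summed to 84.7 to 812 in S2 cells, from Msp-300 only. The part of these markers in the Ank2 values was not tested.

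**Figure D3:**
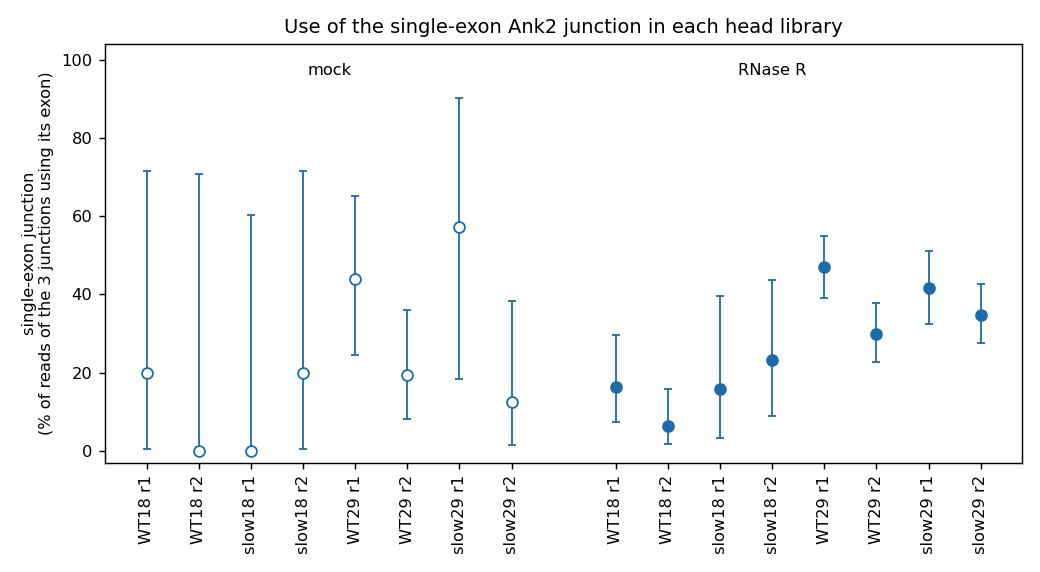
Share of reads at the 3 Ank2 junctions using the 420-base exon that close this exon on itself, per head library (r1 and r2 are replicates), with exact 95% binomial intervals. After RNase R (filled) the libraries of title number 18 lie between 6.45% and 23.1% and those of 29 between 29.8% and 46.9%; mock libraries (open) rest on few reads and have wide intervals.

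In toc and Spn no junction separated the title numbers after RNase R. The leading toc junction averaged 13.2 ± 6.82 at 18 and 17.7 ± 8.93 at 29 (log2 fold change 0.34 ± 0.30), with overlapping ranges. The 4 Spn junctions had log2 fold changes of -0.26 ± 0.70 (1194 bases), 0.36 ± 0.51 (1508 bases), 0.58 ± 0.65 (6693 bases) and 0.41 ± 0.56 (427 bases).

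The comparison of genotypes asked how circles differ in flies with slow RNA polymerase II, with title number as a factor. In mock libraries edgeR called 0 of 230 junctions (0%), with 16 at an unadjusted p below 0.05, and DESeq2 called 0, with 5 at that level. The 4 members tested were 3 of Ank2 and 1 of toc. The leading toc junction was at 6.34 to 11.7 in WT and 0 to 12.5 in slow heads, with a log2 fold change of -0.73 ± 0.94 (edgeR adjusted p = 0.79). The 854-base and 420-base Ank2 junctions gave -0.48 ± 0.46 and -0.57 ± 0.63 (adjusted p = 0.71 and 0.74 by edgeR). In mock counts simulated with the same preset scatter, edgeR called 0% of junctions changed 2-fold and 40% of those changed 4-fold, over all depths.

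The 910-base Ank2 junction did not overlap between genotypes in mock, at 0 to 11.1 in WT and 11.3 to 18.9 in slow heads. Of the 230 junctions 2 were higher in slow without overlap (0.87%). These levels rest on 0 to 3 reads, and the log2 fold change of 0.95 ± 0.82 did not pass the test (edgeR adjusted p = 0.71).

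No Spn junction had enough mock reads for the test. Summed over its junctions, Spn was at 0 and 0 in WT18, 14.6 and 3.70 in WT29, 25 and 22.6 in slow18, and 18.9 and 35.4 in slow29. Every slow library was above every WT library, on 0 to 5 reads in WT and 2 to 8 in slow heads. The same held for 2 of 245 host genes (0.816%) over junctions listed in both replicate tables, where the Spn mock sums were unchanged. The Spn sums were looked at after Spn had been picked from the RNase R libraries of the same RNA samples. The mock difference was spread over several junctions. Mean mock levels in WT and slow heads were 0.73 and 7.70 (427 bases), 0 and 5.95 (601 bases) and 0.73 and 4.58 (1212 bases). They were 0.73 and 3.93 for 6693 bases and 1.46 and 3.32 for 1508 bases. The 1194-base junction went the other way, at 0.92 and 0. Muscle markers summed to 542 to 887.5 in slow mock heads (6 of 6 genes seen) and 240 to 545 in WT (4 of 6, sls and up at 0), and the ranges overlapped narrowly. This list does not mark muscle alone: in S2 cells it summed to 84.7 to 812, with Msp-300 the only gene seen. An Msp-300 junction with 547 head reads, 2L:816665-8042117, fell after RNase R (log2 fold change -4.96). Photoreceptor markers summed to 226 to 416 in slow (6 of 9, with ninaC, inaD and trpl at 0) and 194 to 248 in WT (7 of 9, with inaD and trpl at 0). Fat body markers summed to 37.8 to 75.3 in slow (4 of 5, Lsp2 at 0) and 20.4 to 57.1 in WT (5 of 5). These lists overlapped too, and the part of any of the 3 tissues in the Spn sums was not tested.

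After RNase R, the comparison from which toc and Spn were picked, the leading toc junction averaged 22.04 ± 4.06 in WT and 8.85 ± 2.61 in slow heads (SD, n = 4 each). The lowest WT library, at 18.5, was above the highest slow library, at 12.6, and 4.42% of all junctions were lower in slow heads without overlap. As toc was picked for these levels, the separation adds no independent evidence. The log2 fold change was -1.32. It was -1.17 with DESeq2 and -1.07 without replicate 2 of slow29. The junction held 139 of 168 toc reads in WT (82.7%) and 35 of 44 in slow heads (79.5%), so it led toc in both genotypes. The 618-base junction gave -0.54.

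Among the Spn junctions tested, the largest difference after RNase R was at the noncoding 427-base exon. Its junction had 49 head reads, 1 below the limit of 50 for values in every library, and is given here after its values were seen. After RNase R it stood at 0 and 1.79 in WT18, 2.47 and 0 in WT29, 11.4 and 2.05 in slow18, and 8.10 and 11.8 in slow29. In slow heads 3 of the 4 libraries were above all WT libraries, and the lowest slow one lay below the highest WT one. The means were 1.07 ± 1.26 in WT and 8.34 ± 4.51 in slow heads (SD, n = 4 each), a log2 fold change of 2.71. As Spn was picked for such levels, this adds no independent evidence.

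The neighbouring 1508-base junction did not share this difference, at 4.28 ± 1.98 in WT and 5.02 ± 4.34 in slow heads (log2 fold change 0.16). The log2 fold change of the junction that runs over both exons, 1.17, lay between theirs, with means of 2.01 ± 0.90 and 3.91 ± 2.67. Of the reads at these 3 junctions, the 427-base exon took 8 of 47 in WT and 36 of 74 in slow heads. Single libraries rest on few reads: 0 of 6, 3 of 12, 5 of 19 and 0 of 10 in WT, and 7 of 14, 1 of 2, 9 of 22 and 19 of 36 in slow heads. The exact 95% interval of the library with 1 of 2 reads, 1.26% to 98.7%, covers every WT share above 0%. The 3 Ank2 junctions gave 0.03 ± 0.22, 0.27 ± 0.27 and 0.07 ± 0.37 for 854, 420 and 910 bases, and the genotypes overlapped at each.

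Past the threshold were 37 of all 1221 junctions (3.03%), 11 higher (0.901%) and 26 lower (2.13%) in slow heads, and 2 of the 9 members, and nothing is read from this count. RLE scaling gave 17 higher and 19 lower, and DESeq2 called 9 junctions in all (0.737%). Muscle markers after RNase R summed to 29.1 to 54.9 in WT and 26.1 to 102.9 in slow heads and overlapped.

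**Figure D4:**
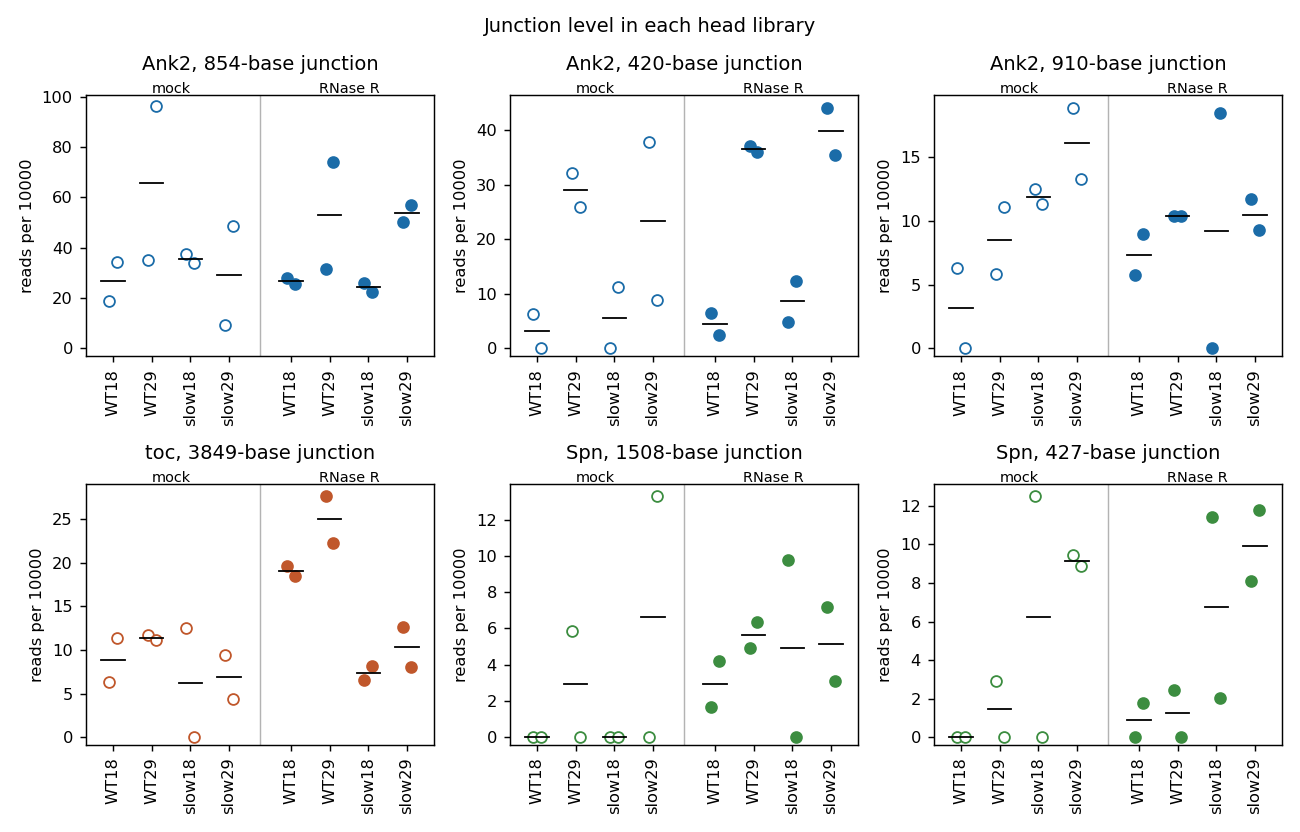
Levels of 6 junctions in reads per 10000 listed back-splice reads, 1 point per head library, for mock (open) and RNase R (filled) libraries; bars are means of 2 replicates. After RNase R the 420-base Ank2 junction is at 35.3 or more in title number 29 and at 12.3 or less in 18, the toc junction is lower in slow than in WT heads, and the 427-base Spn junction reaches 11.8 in slow heads and 2.47 in WT.

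Whether the genotype difference changed with the title number was tested as an interaction in the RNase R libraries. edgeR called 0 of 1221 junctions (0%), with 50 at an unadjusted p below 0.05, and DESeq2 called 0, with 8 at that level. Among the 9 members the unadjusted p ranged from 0.19 to 0.997 and the lowest adjusted p was 0.92. In counts simulated with the same preset scatter, 0% of 2-fold and 4.88% of 4-fold interactions were called. Under that setting a moderate interaction would mostly be missed.

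S2 cells listed Spn junctions and none of Ank2 or toc. Spn had 8 reads in the mock library, or 18.1 per 10000 (exact 95% interval 7.82 to 35.6), and 39 in the RNase R library, or 26.2 (18.7 to 35.8). With 1 library per treatment there is no test. In heads after RNase R the Spn sum was 8.19 to 13.3 in WT and 12.3 to 27.8 in slow libraries.

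The Spn junctions of S2 cells were in part those of heads. The 427-base exon led, with 5 mock and 13 RNase R reads, followed by the 1508-base exon with 2 and 12. The 1120-base exon at 3L:2524599-2525718 had 1 and 9 reads in S2 cells and 6 over all head libraries. After RNase R it stood at 6.05 in S2 cells (interval 2.77 to 11.5) and at 0 to 2.05 in heads. The 1194-base junction, seen in all 8 RNase R head libraries at 1.63 to 4.11, was not listed in S2 cells. Photoreceptor and fat body markers summed to 194 to 416 and 20.4 to 75.3 in mock heads, and to 31.0 to 55.5 and 3.95 to 19.6 in RNase R heads. In S2 cells they were at most 4.03 and 0. Muscle and hemocyte markers did not separate heads from S2 cells. Muscle markers were at 84.7 to 812 over the mock and RNase R libraries of S2 cells. They were at 239.7 to 887.5 in mock heads and 26.1 to 102.9 in RNase R heads. Hemocyte and S2 cell markers were at 18.1 to 31.6 over the same S2 libraries, with 3 of 8 genes seen. They were at 0 to 18.9 in mock heads and 11.4 to 36.95 in RNase R heads. Glia markers were at 0 in mock heads and in S2 cells.

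**Figure D5:**
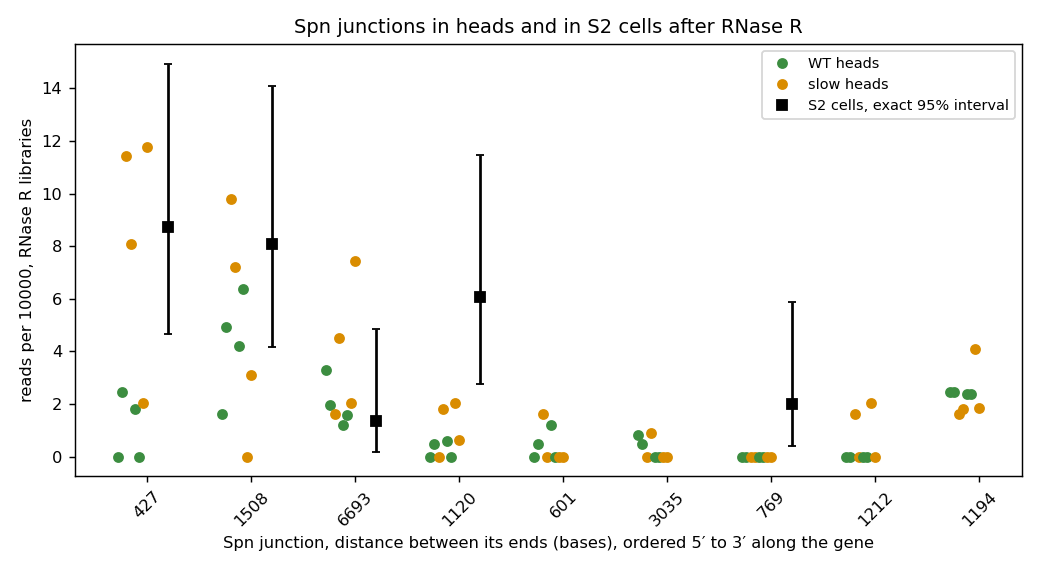
Level of each Spn junction after RNase R in reads per 10000 listed back-splice reads, ordered along the gene, with 1 point per head library and a square with its exact 95% interval for S2 cells. The 427-base junction is at 8.74 in S2 cells, within the range of slow heads and above all WT heads, and the 1120-base junction is at 6.05 there and at most 2.05 in heads.

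The stranded library of WT heads listed 7 members on the minus strand, that of their genes: 15 reads of Ank2, 5 of toc and 4 of Spn. The 854-base Ank2 junction had 8 of these reads, or 30.8 per 10000 (exact 95% interval 13.3 to 60.6). The leading toc junction had 3 and the 1508-base Spn junction 4. The plus-strand toc junction was not listed there.

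The junctions of other genes whose levels over the 8 RNase R head libraries were most like those of the leading junction of each gene were found among 315 junctions with 50 or more reads. For the 854-base Ank2 junction they were in Parp (Pearson r = 0.94), Stim (0.87) and CG42247 (0.87). For toc they were in foxo (0.94), pum (0.93) and SNF4Agamma (0.93), and for the 1508-base Spn junction in Gug (0.88), CG18437 (0.86) and slo (0.84). The values are of log2 levels with 1 added, over libraries that share genotype, title number and depth differences, and describe these libraries only.

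Genes of the spectrin, microtubule and actin skeleton and partners of Spinophilin were counted in the same fits, from lists drawn up with earlier results known. Of 12 spectrin, ankyrin and membrane linker genes 9 had junctions in any library, S2 cells included, and 12 head junctions were tested. None was called for RNase R, where their median log2 fold change was 0.60 against 0.41 for all. By title number after RNase R, 3 of the 12 were lower at 29, in the scaffold gene dlg1 (-2.12 ± 0.20, edgeR adjusted p = 2.1e-22, and -2.70 ± 0.95, 0.037) and the adducin gene hts (-1.97 ± 0.73, 0.048). Over all junctions 9.01% were lower there, and the medians were -0.47 for the list and -0.15 for all. One of these dlg1 junctions, X:11291858-11292855, was also lower at 29 in mock heads (-2.35 ± 0.44, edgeR adjusted p = 2.6e-05), the 1 call among 4 listed junctions tested there, against 4.78% of all. A further dlg1 junction was lower in slow than in WT heads after RNase R (-2.40 ± 0.36, edgeR adjusted p = 1.5e-08), 1 of 12 against 3.03% of all.

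Of 30 microtubule genes 15 had junctions in any library, and 1 of 13 tested was called for RNase R, a lower one in the kinesin gene unc-104 (-2.69 ± 0.92, edgeR adjusted p = 0.047). The median of the 13 was 0.17, and 7.39% of all junctions were called for RNase R. Of 33 actin genes 17 had junctions. Of 11 tested for RNase R, 1 was called, lower, in osp (-2.63 ± 0.89, edgeR adjusted p = 0.045), and their median was 1.53. By title number after RNase R, 1 of 10 was higher and 2 were lower, among them a higher and a lower junction of the tropomyosin gene Tm1 (1.55 ± 0.44 and -1.81 ± 0.52). The other lower one was in CG33558, listed as mim (-4.89 ± 1.25), and 14.7% of all junctions were called there. Of 13 genes for protein phosphatase 1 and active zone partners of Spinophilin 6 had junctions. Of these 12 were tested for RNase R, with 0 called and a median of 0.66, and 1 of 11 was called by title number after RNase R, against 14.7% of all. It was lower at 29 in the receptor phosphatase gene Lar (-4.36 ± 0.44, edgeR adjusted p = 2.0e-20).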

How the data were processed

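Back-splice junctions were counted by the authors in 16 fly head libraries, 2 S2 cell libraries and 1 stranded head library. The deposited values are raw read counts per junction, with position, strand and host gene; a junction's listed total is at least 2. Per the labels' protocols, Ribominus removed ribosomal RNA, RNase R acted for 15 min at 37 °C (3 units for each microgram), and a TruSeq RNA kit gave the libraries. Bowtie, CASAVA and build dm3 are named in the submitters' processing notes; versions, order and junction caller are not given in the sources used here.

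Members were taken by host gene. Members, gene lists and tests were chosen with earlier results of these data known. Junctions in both replicate tables with at least 10 reads and reads in at least 2 libraries were tested with edgeR 4.0.16 (R 4.3.3), by the quasi-likelihood F-test, two-sided, with Benjamini-Hochberg adjustment at 0.05 over all tested junctions. Library size was the sum of listed back-splice reads, with TMM factors over the 100 junctions with the highest mean share. The SE is the log2 fold change divided by the square root of F, so it restates the test. RNase R was compared with mock within RNA samples, as the design pairs them. Otherwise equal replicate numbers were not taken as pairs. Deviations of same-numbered libraries correlated at -0.003 to 0.20 after RNase R and at -0.23 to 0.25 in mock. No pair of libraries had identical counts. DESeq2 1.42.0, other scalings and filters, a replicate block and leaving out samples were tried. Tests were checked on simulated counts. Members with at least 10 head reads are named, and those with at least 50 get values in every library. Exons were matched by length to the dm6 annotation, and no sequence was used.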

Additional observations from a re-analysis of the deposited data

Results flagged for a closer look

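Of 49 groups of libraries examined, 6 held a library far from the others. The groups share libraries, and how often chance flags a group at counts this low was not worked out. Where all other libraries of a group are at 0, any library with reads is flagged.

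The 854-base Ank2 junction was at 96.2 reads per 10000 in the mock library of WT29 replicate 2, and the nearest of the 8 mock libraries was at 48.7. In the RNase R library of the same RNA sample it was at 74.1, against 31.6 or less in the other 3 WT libraries.

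The leading toc junction was at 6.34 in the mock library of WT18 replicate 1, on 1 read, while the other WT mock libraries lay between 11.1 and 11.7. The 1508-base Spn junction was at 5.84 in the mock library of WT29 replicate 1 and at 0 in the other 3 WT mock libraries. It was at 13.3 in the mock library of slow29 replicate 2 and at 0 in the other slow mock libraries, and that library also stood apart among all 8 mock libraries.

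The stranded library, which entered no comparison, had 4 reads at the 1508-base Spn junction and 8 at the 854-base Ank2 junction.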

How the results depend on the processing

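Depth is the main limit: mock head libraries held 800 to 3427 listed reads, and member values there rest on 0 to 26 reads each. Of 549 values of single members recomputed under an alternative, 515 kept their direction and side of the threshold. They include values from the comparisons the genes were picked from, where such stability adds no independent evidence.

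For RNase R against mock, 305 junctions and 4 members were called with TMM over all junctions, 57 and 0 with a filter of 50 reads, 72 and 0 with DESeq2. Leaving out 1 RNA sample gave 60 to 100 junctions and 0 to 1 members. Without replicate 1 of WT29, 60 were called. The 910-base Ank2 junction turned to 0.71 with TMM over all junctions, 0.06 (0.0595) with RLE and between -0.26 and 0.18 without 1 sample. The 854-base one turned to 0.72, 0.041 with RLE, 0.105 with DESeq2 and between -0.17 and 0.11 without 1 sample. Without 1 sample Spn lay between -0.087 and 1.34 (1508 bases) and between -0.0046 and 0.30 (427 bases), the latter at -0.26 with DESeq2. The cause was not tested.

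For slow against WT in mock, 2 of 30 junctions were called with the filter of 50 reads, and 0 without any 1 library. The 420-base Ank2 junction lay between -1.20 and 0.27 and the 854-base one between -0.85 and 0.20 without 1 library. For 29 against 18 in mock, 4 of 30 were called with that filter, 1 with no filter, 1 with DESeq2 and 2 to 10 without 1 library (6 or fewer except without slow18 replicate 1), with 0 members.

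After RNase R, slow against WT gave 9 calls with DESeq2, 32 with the filter of 50 reads, and 18 to 40 without 1 library, the 18 without slow29 replicate 2. For 29 against 18 these were 112 with the filter, 87 with DESeq2, and 105 (without WT18 replicate 2) to 184 without 1 library. Member calls are left out here, as the genes were picked from these 2 comparisons. The interaction gave 0 to 1, the 1 call (without WT18 replicate 1) being no member.

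Head libraries of the same replicate number share a junction list, and no other link between them is known from the labels. With a replicate block, calls numbered 0 and 10 in mock by genotype and title number, 37, 163 and 0 after RNase R by genotype, title number and interaction; without the sample block RNase R gave 106.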
